A study of Bos taurus with 6 samples.

Results

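The genes described here are 10 genes of the Hedgehog pathway, taken by symbol from the RNA-seq tables of bovine embryonic stem cells (bESCs) of the line F7. They are the ligand SHH, the receptor PTCH1, the signal transducer SMO, the transcription factors GLI1, GLI2 and GLI3, the ligand trap HHIP and the co-receptors GAS1, BOC and CDON. All 10 were among the 19163 genes of the count table, and 9 had enough counts to be tested. F7 was derived from bovine embryos made by in vitro fertilization, and both groups were F7 cells after 15 passages in a medium with recombinant human fibroblast growth factor and the Wnt inhibitor IWR1. MC-F7 cells (called 1M-F7 in the labels) grew on mouse embryonic fibroblast feeders that mitomycin C had left alive but unable to divide. MT-F7 cells grew on mouse embryonic fibroblasts fixed with methanol, which are dead. The medium was changed daily for MC-F7 and every other day for MT-F7, so feeder and medium schedule cannot be told apart. The floating cells were collected after the dissociated culture had settled briefly on gelatin, and each group had 3 libraries of 1 cell line.

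In Hedgehog signaling, PTCH1 holds SMO inactive until a ligand such as SHH binds to it. Active SMO, at the primary cilium, turns the GLI factors from repressors, mainly GLI3, into activators, mainly GLI2. Transcription of GLI1, PTCH1 and HHIP is raised by the active pathway in many cell types, so these genes are commonly read as its output, and PTCH1 and HHIP in turn restrain the signal. The pathway is known for setting ventral fates in the neural tube, and its co-receptors GAS1, BOC and CDON help PTCH1 to bind ligand.

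The libraries held 21958386 to 24933430 reads counted on genes. Levels are given as CPM, the counts of a gene per 1000000 counts of its library after TMM scaling, and differences as the log2 fold change of MT-F7 against MC-F7 with its standard error (SE) from edgeR's quasi-likelihood test, with p values adjusted by the Benjamini-Hochberg method over 13001 tested genes. Genes passed at an adjusted p below 0.05, as 23.2% of all tested genes did, 11.9% as higher and 11.3% as lower in MT-F7, and the median log2 fold change was -0.0026. The paper's statistics section speaks of technical replicates, and the sources do not say that replicates were grown as separate cultures. The p values thus measure the spread between these libraries, which may be technical. In bulk RNA, fewer cells that express a gene and less RNA per cell cannot be told apart. The paper proposes that fixed feeders left less feeder-cell contamination in the cultures. RNA of the living mouse feeders may thus be part of the MC-F7 counts, and its share in the differences was not tested.

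Of the 9 tested Hedgehog genes, 8 passed (88.9%, against 23.2% of all tested genes), 3 of them higher and 5 lower in MT-F7. The members were chosen with earlier results of these data known. HHIP, GLI1, PTCH1, GLI2 and GAS1 fell, while GLI3, BOC and SMO rose, and CDON did not pass. In 7 of the 9 genes the groups did not overlap in CPM, against 40.0% of all tested genes. The calls of HHIP, GLI1, PTCH1, GLI3 and BOC, held in each of the 6 fits that left out 1 library.

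**Figure D1:**
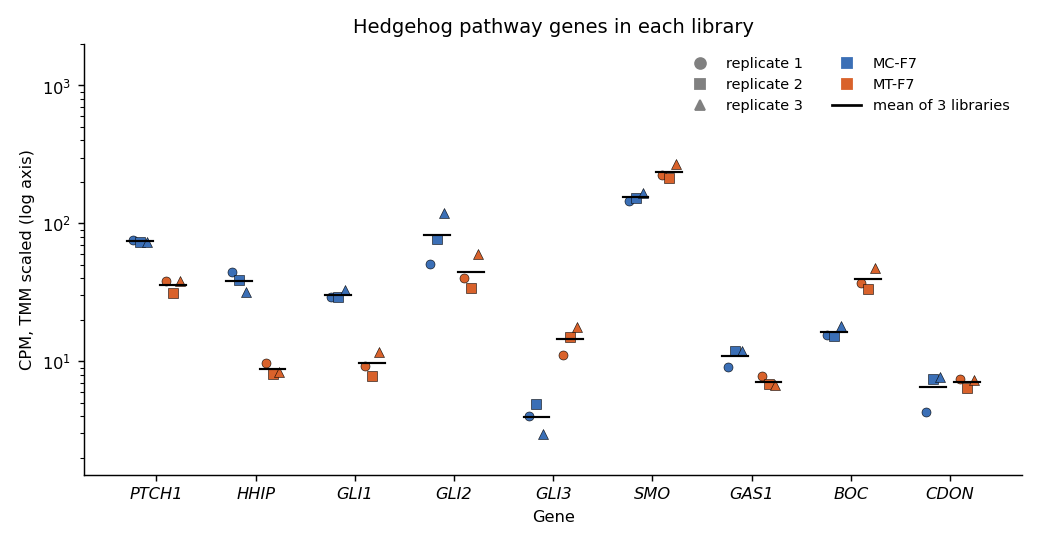
CPM of each of the 9 tested genes in each library, on a log axis, with MC-F7 in blue, MT-F7 in orange, the replicate number as the marker shape and the mean of 3 libraries as a line. HHIP, GLI1 and PTCH1 lie lower and GLI3, BOC and SMO higher in all 3 MT-F7 libraries, and GLI2 has the widest spread within a group.

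The ligand SHH (Entrez gene 286821) was close to absent. Its counts were 1, 5 and 0 in MC-F7, against 0 in every MT-F7 library. A count of 0 allows up to 3 counts per library, or 0.120 to 0.137 CPM at these depths, a limit that covers counting error only. SHH was too low to be tested, and no difference was detectable. Of the other Hedgehog ligands, IHH had 0 counts in all 6 libraries, and DHH was present at 3.43 ± 0.790 CPM in MC-F7 and 3.10 ± 1.29 CPM in MT-F7 (SD, n = 3), with a log2 fold change of -0.15 (95% interval -0.85 to 0.55, adjusted p = 0.78).

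GLI1, PTCH1 and HHIP, the 3 members known as transcriptional output of the pathway, were all lower in MT-F7. HHIP (540830), a membrane protein that binds and sequesters ligand, had 44.4, 38.5 and 31.7 CPM in MC-F7 and 9.72, 8.11 and 8.32 CPM in MT-F7. The lowest MC-F7 library was thus well above the highest MT-F7 library. HHIP fell 4.38-fold in the means (log2 fold change -2.13, SE 0.181, adjusted p = 5.4e-06). GLI1 (517588), an activator that is itself a target, had 29.2, 29.1 and 32.8 CPM in MC-F7 and 9.28, 7.84 and 11.8 CPM in MT-F7. The 3 values of either group lay close together. GLI1 fell 3.15-fold (log2 fold change -1.66, SE 0.184, adjusted p = 4.3e-05). PTCH1 (520994), the receptor, had 76.2, 73.1 and 73.3 CPM in MC-F7 and 37.9, 31.4 and 38.3 CPM in MT-F7. It fell 2.07-fold (log2 fold change -1.05, SE 0.148, adjusted p = 2.7e-04).

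The remaining GLI factors went in opposite directions. GLI3 (785371), best known in its short repressor form and described in the neural tube as held down by the pathway, had 4.02, 4.89 and 2.94 CPM in MC-F7 and 11.1, 15.1 and 17.6 CPM in MT-F7. The lowest MT-F7 library lay well above the highest MC-F7 library. GLI3 rose 3.69-fold (log2 fold change 1.88, SE 0.243, adjusted p = 1.4e-04). GLI2 (510255), the main activator, had 50.3, 77.4 and 119 CPM in MC-F7 and 39.9, 33.9 and 60.3 CPM in MT-F7. Replicate 3 was the highest in both groups, and MT-F7 replicate 3 lay above MC-F7 replicate 1, so the groups overlapped. The log2 fold change of GLI2 was -0.88 (SE 0.281, adjusted p = 0.039). It no longer passed without MC-F7 replicate 2 (adjusted p = 0.079), MC-F7 replicate 3 (-0.52, adjusted p = 0.13), MT-F7 replicate 1 (adjusted p = 0.12) or MT-F7 replicate 2 (adjusted p = 0.13).

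SMO (539308), the transducer that PTCH1 restrains, was the most abundant of the 10 genes and was higher in MT-F7. It had 146, 154 and 166 CPM in MC-F7 and 223, 212 and 271 CPM in MT-F7, without overlap. SMO rose 1.51-fold (log2 fold change 0.60, SE 0.153, adjusted p = 0.013), and missed the threshold without MC-F7 replicate 2 (0.59, adjusted p = 0.074).

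The 3 co-receptors did not move together. BOC (512018), an immunoglobulin-family surface protein, had 15.6, 15.1 and 18.0 CPM in MC-F7 and 37.2, 33.4 and 47.5 CPM in MT-F7. It rose 2.43-fold (log2 fold change 1.28, SE 0.176, adjusted p = 2.3e-04). CDON (536011), the family member most like BOC, had 4.29, 7.46 and 7.71 CPM in MC-F7 and 7.41, 6.37 and 7.34 CPM in MT-F7. These values overlapped, and the log2 fold change was 0.12 (95% interval -0.41 to 0.64, adjusted p = 0.77), which leaves room for a change of moderate size in either direction. GAS1 (540336), a lipid-anchored surface protein, had 9.06, 11.8 and 11.9 CPM in MC-F7 and 7.77, 6.83 and 6.75 CPM in MT-F7. The groups did not overlap, and its log2 fold change was -0.62 (SE 0.192, adjusted p = 0.035). GAS1 no longer passed without MC-F7 replicate 2 (adjusted p = 0.14), MC-F7 replicate 3 (0.078), MT-F7 replicate 1 (0.069), MT-F7 replicate 2 (0.11) or MT-F7 replicate 3 (0.064), so its call was lost in 5 of 6 such fits. The count of lower members went from 5 to 3 without each of 4 libraries (MC-F7 replicates 2 and 3, MT-F7 replicates 1 and 2). Genes called lower over all tested genes numbered 895, 1501, 995 and 1016 in these fits, in that order, against 1463 with all libraries.

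**Figure D2:**
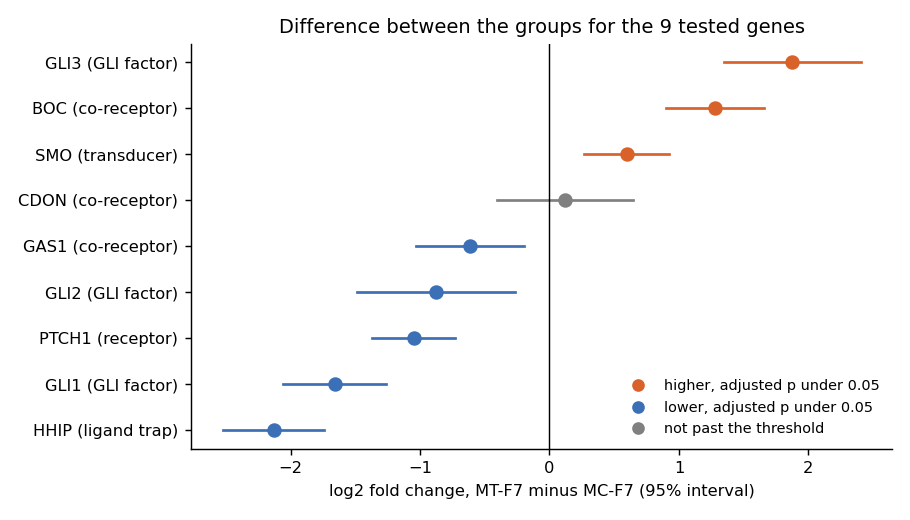
The log2 fold change of MT-F7 against MC-F7 for the 9 tested genes, with 95% intervals from the quasi-likelihood fit and colour for the call. The 5 lower genes run from HHIP at -2.13 to GAS1 at -0.62, the 3 higher ones from SMO at 0.60 to GLI3 at 1.88, and the interval of CDON spans 0.

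To compare levels between genes, the deposited values called TPM were used, which are per length. They still carry the depth of each library, so here they serve to order genes within a group, and differences between the groups are taken from the counts. In MC-F7, SMO stood highest at 9.24 ± 0.528 TPM, above GLI2 at 3.0 ± 1.14, HHIP at 2.41 ± 0.472, GAS1 at 1.93 ± 0.310, PTCH1 at 1.88 ± 0.115 and GLI1 at 1.75 ± 0.0609 TPM (SD, n = 3). From GLI2 down to GLI1 each gene overlapped its neighbour in the order. BOC at 0.591 ± 0.0267 TPM lay below them without overlap, followed by CDON and GLI3 at 0.195 ± 0.0585 and 0.133 ± 0.0402 TPM, which overlapped, and by SHH.

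In MT-F7 the order differed most for HHIP and BOC, and CDON and GLI3 changed places. SMO was again the highest at 15.2 ± 1.28 TPM and was followed by GLI2, BOC and GAS1 at 1.79 ± 0.461, 1.56 ± 0.211 and 1.38 ± 0.140 TPM, each overlapping the next. PTCH1 at 0.993 ± 0.0782 TPM stood apart from its neighbours. GLI1, HHIP and GLI3 lay close together at 0.604 ± 0.0945, 0.599 ± 0.0683 and 0.527 ± 0.106 TPM, and CDON was lower at 0.231 ± 0.0140 TPM. HHIP thus went from rank 3 to rank 7 of the 10 genes, and BOC from rank 7 to rank 3.

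**Figure D3:**
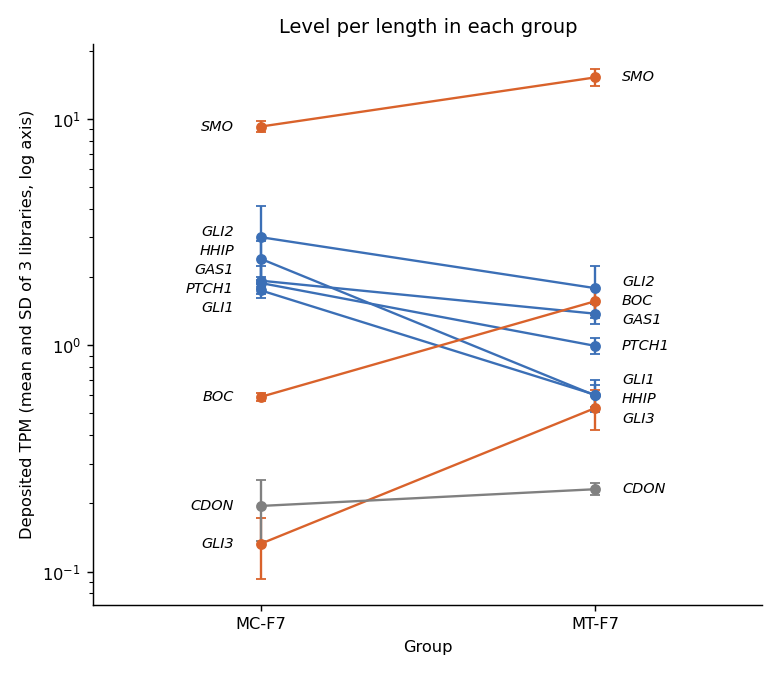
Deposited TPM (mean and SD of 3 libraries, log axis) of the 9 tested genes in MC-F7 and MT-F7, joined by lines in the colour of the call (orange higher, blue lower, grey not past the threshold). SMO is highest in both groups, and GLI3, far below GLI1 and HHIP in MC-F7, lies close to both in MT-F7, where the means of the 3 genes are between 0.527 and 0.604 TPM.

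Ratios of these values within a library do not depend on its depth. The ratio of GLI3 to GLI1 was 0.0794, 0.0968 and 0.0517 in the MC-F7 libraries, against 0.687, 1.11 and 0.860 with methanol-fixed feeders. GLI1 was thus in large excess over GLI3 in MC-F7, while the levels were similar in MT-F7. The ratio of SMO to PTCH1 was 4.51 to 5.32 in MC-F7 and 13.8 to 16.6 in MT-F7. BOC was at 0.266 to 0.355 of the level of GAS1 in MC-F7 and at 0.990 to 1.45 of it in MT-F7. GLI2 exceeded GLI3 by 13.9 to 44.7 times in MC-F7 and by 2.50 to 4.0 times in MT-F7, with the widest spread in MC-F7, where replicate 3 was the highest. Each of these ratios pairs a gene called higher with a gene called lower, so its difference between the groups was largely given by those calls. They are descriptions without a test, since the smallest two-sided p of an exact permutation test with 3 libraries a group is 0.10.

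**Figure D4:**
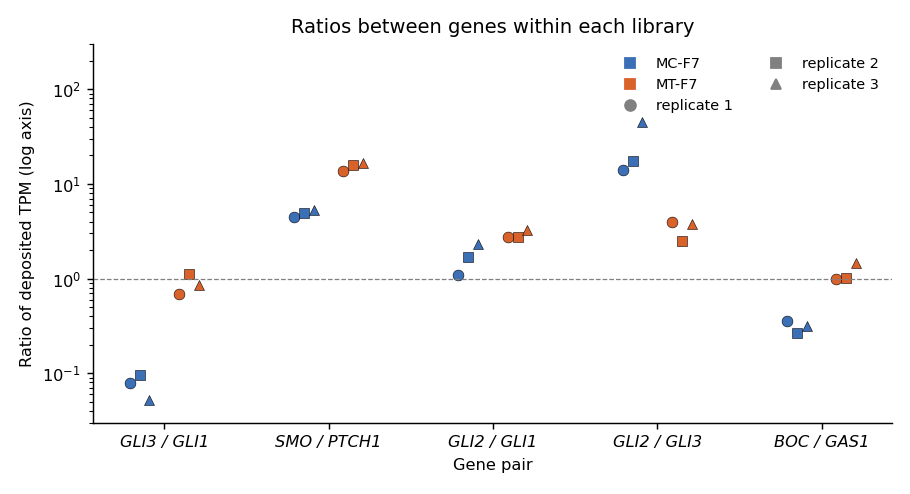
Ratios of deposited TPM between pairs of genes within each library, on a log axis, with MC-F7 in blue and MT-F7 in orange. In none of the 5 pairs do the groups overlap. For all pairs but GLI2 to GLI1 this follows largely from the opposite calls of the paired genes. GLI3 to GLI1 goes from at most 0.0968 in MC-F7 to between 0.687 and 1.11 in MT-F7.

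Beyond these 10 genes, 39 others that act in ligand release, at the cell surface, on SMO and the GLI factors or in ciliary transport were listed, of which 36 were tested. Of these, 9 were higher and 1 lower in MT-F7, and 26 did not pass. That share of calls was 27.8%, against 23.2% of all tested genes, and their median log2 fold change was 0.23. By role, the share called was 50% for ligand release and 50% for the cell surface, each with few genes tested. The list was chosen with earlier results of these data known.

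Among 6 tested genes for ligand production and release, the 3 SCUBE genes rose and none fell. The SCUBE proteins are secreted carriers, of which SCUBE2 is best known for taking up Hedgehog ligand from the cell surface. SCUBE3 rose from 4.68 ± 1.10 to 20.5 ± 1.29 CPM (log2 fold change 2.13, SE 0.207, adjusted p = 1.4e-05). SCUBE1 rose from 15.3 ± 5.05 to 36.6 ± 9.61 CPM (log2 fold change 1.26, SE 0.248, adjusted p = 0.0029). SCUBE2 was much lower, at 0.373 ± 0.180 and 1.2 ± 0.207 CPM (log2 fold change 1.68, SE 0.493, adjusted p = 0.025). SCUBE2 missed the threshold without MC-F7 replicate 2, MT-F7 replicate 1 or MT-F7 replicate 3 (adjusted p = 0.12, 0.081 and 0.068). DISP1, which releases the lipid-bearing ligand, was at 19.9 ± 4.81 and 17.6 ± 1.67 CPM (log2 fold change -0.18, 95% interval -0.61 to 0.25, adjusted p = 0.55).

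At the cell surface, GPC3 and LRP2 rose, and GPC4 and GPC6 did not pass. GPC3, a glypican known to compete with PTCH1 for ligand, had 110, 114 and 74.3 CPM in MC-F7 and 352, 316 and 217 CPM in MT-F7. Its log2 fold change was 1.57 (SE 0.214, adjusted p = 2.1e-04). LRP2, an endocytic receptor that takes part in SHH signaling in the forebrain, rose from 22.7 ± 6.18 to 56.8 ± 11.0 CPM (log2 fold change 1.33, SE 0.219, adjusted p = 8.5e-04). GPC4 was at 331 ± 50.1 and 343 ± 37.2 CPM (log2 fold change 0.049, 95% interval -0.31 to 0.41), and GPC6 was under 1 CPM on average in both groups, with a log2 fold change of 0.20 (95% interval -1.54 to 1.94).

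Of 18 regulators of SMO and the GLI factors, SUFU, STK36 and ARRB1 rose, CSNK1A1 fell and 14 did not pass. The share called, 22.2%, was close to the 23.2% of all tested genes. CSNK1A1, a kinase that marks GLI proteins for processing, fell from 26.2 ± 2.11 to 14.7 ± 0.642 CPM (log2 fold change -0.84, SE 0.156, adjusted p = 0.0020). SUFU, which holds GLI proteins in the cytoplasm, rose from 4.73 ± 1.2 to 8.42 ± 1.84 CPM (log2 fold change 0.83, SE 0.253, adjusted p = 0.031). STK36, a kinase related to Drosophila fused, rose by 0.82 on the log2 scale (adjusted p = 0.023). ARRB1, a beta-arrestin, rose by 0.73 on that scale (adjusted p = 0.046). The calls of SUFU, STK36 and ARRB1 rested on many of the libraries. SUFU was lost without MC-F7 replicate 1, MT-F7 replicate 1 or MT-F7 replicate 3 (adjusted p = 0.092, 0.12 and 0.086). STK36 was lost without MC-F7 replicate 1, MC-F7 replicate 2, MT-F7 replicate 2 or MT-F7 replicate 3 (0.072, 0.093, 0.052 and 0.071). ARRB1 was lost without MC-F7 replicates 1, 2 or 3 (0.11, 0.059 and 0.098) or MT-F7 replicates 2 or 3 (0.13 and 0.12). PRKACA, the catalytic subunit of protein kinase A, was at 93.9 ± 8.53 and 127 ± 15.6 CPM, with a log2 fold change of 0.44 (adjusted p = 0.056). It passed in 5 of 16 alternatives, among them DESeq2 (adjusted p = 0.033), the fit with a replicate block (0.0095) and the fit without MT-F7 replicate 3 (0.022). MGRN1, part of a ubiquitin ligase that removes SMO, was the most abundant regulator that did not pass (160 ± 16.3 and 155 ± 24.7 CPM, log2 fold change -0.05, 95% interval -0.40 to 0.30).

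Of 8 tested genes of ciliary transport, 1 passed (12.5%, against 23.2% of all tested genes). TULP3, which brings membrane receptors into the cilium, rose from 5.99 ± 0.520 to 10.3 ± 1.96 CPM (log2 fold change 0.78, SE 0.205, adjusted p = 0.015), and missed the threshold without MC-F7 replicate 2 or MT-F7 replicate 3 (adjusted p = 0.073 and 0.053). The 7 others, among them EVC2 (log2 fold change 0.25) and IFT88 (0.065), did not pass. Over the 36 tested genes of this wider list, 6 were called without MC-F7 replicate 2 and 6 without MT-F7 replicate 3, against 10 with all libraries. Over all genes, 1914 of 13177 were called without MC-F7 replicate 2 and 3087 of 13242 without MT-F7 replicate 3, against 3016 of 13001.

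**Figure D5:**
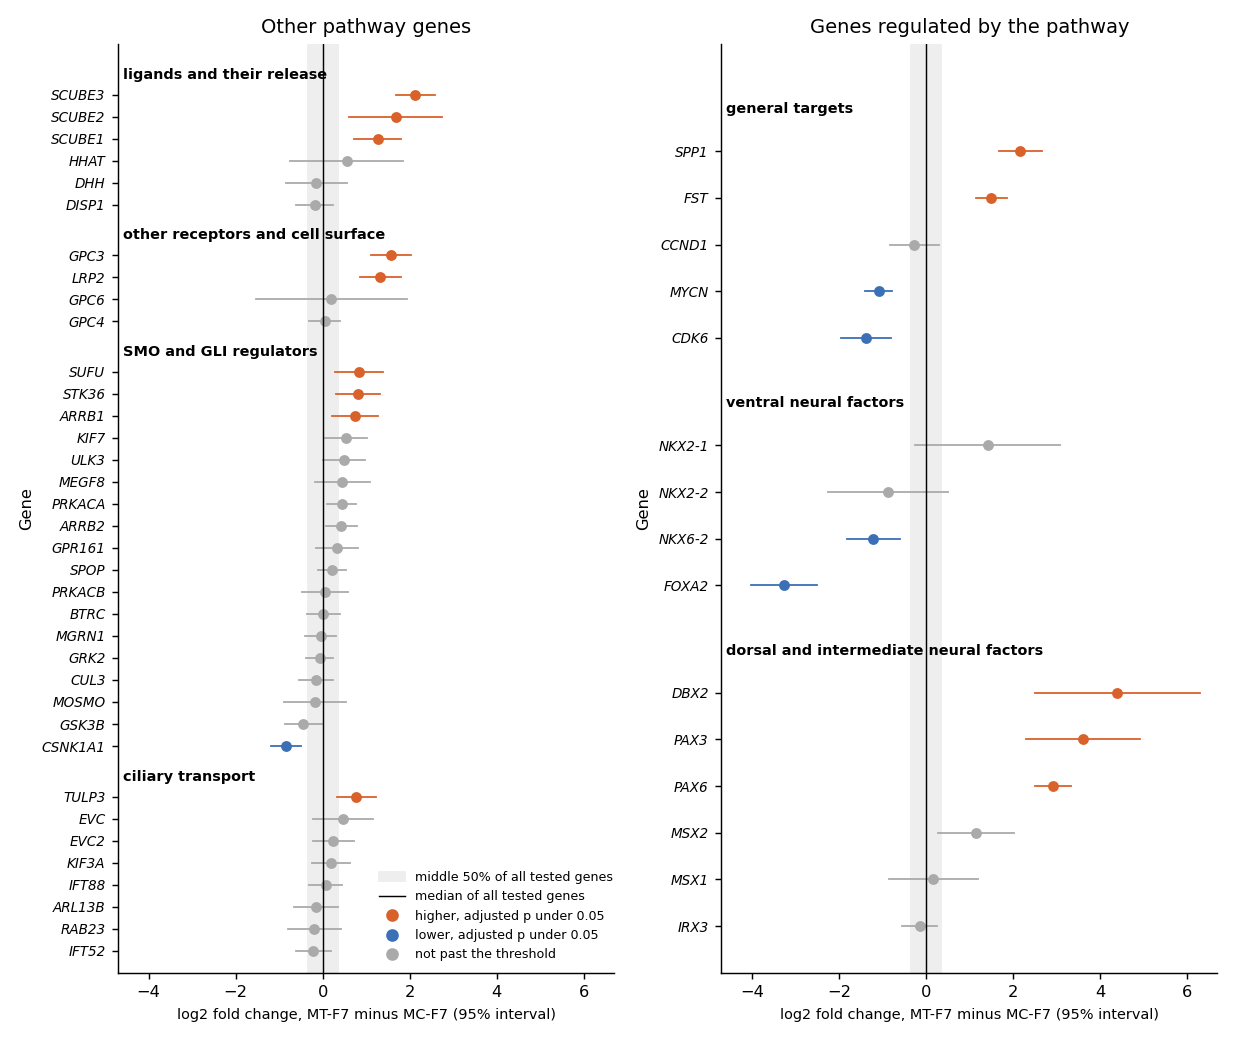
The log2 fold change of MT-F7 against MC-F7 with 95% intervals for the 36 tested genes of the wider pathway list (left) and the 15 tested genes known to be regulated by the pathway (right), grouped by role. The grey band spans the interquartile range of all tested genes, from -0.33 to 0.35. The 3 SCUBE genes, GPC3 and LRP2 lie to its right, the ventral factors that passed lie to its left and the dorsal and intermediate ones that passed to its right, and most regulators and cilium genes lie within or near it.

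Of 26 genes known as targets or patterning outputs of the pathway in some tissue, 15 were tested. Of these, 5 were higher and 4 lower in MT-F7, and 6 did not pass. The share called was 60%, against 23.2% of all tested genes, in a list chosen with earlier results of these data known. Among the general targets, MYCN and CDK6 fell, FST and SPP1 rose, and CCND1 did not pass. MYCN, a proliferation factor, had 153, 149 and 173 CPM in MC-F7 and 80.7, 72.0 and 71.6 CPM in MT-F7 (log2 fold change -1.08, SE 0.145, adjusted p = 1.9e-04). CDK6, a kinase of the cell cycle, had a log2 fold change of -1.38 (SE 0.268, adjusted p = 0.0027). FST, a secreted activin antagonist, rose from 19.1 ± 2.65 to 54.3 ± 5.98 CPM (log2 fold change 1.5, SE 0.167, adjusted p = 4.3e-05). SPP1, or osteopontin, had a log2 fold change of 2.17 (SE 0.229, adjusted p = 2.9e-05). CCND1 was at 4.12 ± 0.496 and 3.42 ± 0.773 CPM, with a log2 fold change of -0.27 (95% interval -0.83 to 0.29). BCL2, FOXF1, FOXF2 and NKX3-2 had at most 15 counts in any library and were not tested.

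Of 4 tested ventral factors of the neural tube, FOXA2 and NKX6-2 fell and 2 did not pass. Of 6 tested dorsal and intermediate factors, PAX6, PAX3 and DBX2 rose and 3 did not pass, and the difference between these groups was not tested. The share called was 50% in either set of factors, against 23.2% of all tested genes. Both sets belong to the list chosen with earlier results of these data known. FOXA2, a factor of the floor plate and also of endoderm, had 4.64, 5.06 and 4.77 CPM in MC-F7 and 0.398, 0.347 and 0.764 CPM in MT-F7. It fell 9.58-fold (log2 fold change -3.26, SE 0.348, adjusted p = 3.1e-05). NKX6-2 had 4.60, 3.15 and 4.35 CPM in MC-F7 and 1.55, 1.78 and 1.91 CPM in MT-F7 (log2 fold change -1.20, SE 0.279, adjusted p = 0.0075). These levels are low, and the groups did not overlap in either gene.

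PAX6, a factor of the forebrain, the eye and the intermediate neural tube, had 2.61, 2.90 and 2.38 CPM in MC-F7 and 20.6, 19.5 and 19.7 CPM in MT-F7. It rose 7.57-fold (log2 fold change 2.92, SE 0.189, adjusted p = 7.7e-07). PAX3, a dorsal factor, was counted 7, 9 and 0 times in MC-F7, against 47, 94 and 74 times in MT-F7 (log2 fold change 3.60, SE 0.606, adjusted p = 9.2e-04). DBX2, an intermediate factor, was counted 0, 0 and 3 times in MC-F7 and 17, 39 and 22 times in MT-F7, a ratio of 23.8 at equal depth with a 95% counting interval of 7.83 to 118 (adjusted p = 0.0026). Of the factors that did not pass, NKX2-1, NKX2-2 and MSX1 had means under 1 CPM in both groups. On the log2 scale NKX2-1 differed by 1.42 (95% interval -0.25 to 3.09), NKX2-2 by -0.87 (-2.24 to 0.50), IRX3 by -0.15 (-0.56 to 0.27), MSX1 by 0.17 (adjusted p = 0.83) and MSX2 by 1.15 (0.29 to 2.02, adjusted p = 0.054). Leaving out 1 library brought NKX2-1 past the threshold without MC-F7 replicate 3 (2.75, adjusted p = 0.041) and MSX2 without MT-F7 replicate 3 (adjusted p = 0.012). MSX2 passed in 5 of 15 alternatives, among them DESeq2 (0.030) and the fit with a replicate block (0.024). NKX6-1, FOXA1 and DBX1 had at most 10 counts in any library and were not tested.

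Some markers of cell states also differed between the groups. Of 10 pluripotency markers, 8 were tested, and 7 of them fell while SALL4 did not pass. Their summed level was 1457 to 2196 CPM in MC-F7 and 789.5 to 928 CPM in MT-F7. Most of that sum was POU5F1, with 825 to 1456 CPM in MC-F7 and 486 to 557 CPM in MT-F7. Of 10 markers of neural progenitors, 8 were tested and 6 rose, and PAX6 is in this list too. Their summed level was 551 to 682 CPM in MC-F7 and 1540.2 to 1625 CPM in MT-F7. NES, which did not pass, had 289 to 338 CPM of that sum in MC-F7 and 361 to 464 CPM in MT-F7. Of 12 fibroblast markers, 11 were tested, 3 rose (COL3A1, PDGFRB and POSTN) and none fell. Their summed level was 223 to 300.4 CPM in MC-F7 and 342 to 396 CPM in MT-F7, and most of that sum was COL1A1, which did not pass. FAP was counted 0, 9 and 7 times in MC-F7 and was at 0 in every MT-F7 library. The shares called of pluripotency, neural progenitor and fibroblast markers were 87.5%, 75% and 27.3%, against 23.2% of all tested genes. These lists, too, were chosen with earlier results of these data known. The part of these cell states, or of RNA from the feeders, in the Hedgehog results was not tested.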

How the data were processed

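RNA-seq libraries of MC-F7 and MT-F7 (3 each) were compared. According to the methods and the submitters' processing notes, the authors aligned paired-end reads with HISAT2 2.0.5 to a Bos taurus genome from Ensembl and counted reads per gene with featureCounts 1.5.0-p3. The build and strand setting are not given in the sources used here, so no coordinates are printed. The authors deposited raw counts per Entrez gene and values they call TPM. For the 64 listed genes that had a TPM line and no library below 50 counts, the ratio of TPM to count was the same in all libraries within 0.001 (relative), so library size is still in the TPM values. Entrez identifiers were paired with symbols through the RefSeq gene table of ARS-UCD2.0, which held 19074 of the 19163.

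Counts were filtered by filterByExpr (minimum count 10, minimum total 15), scaled by TMM (factors 0.971 to 1.04) and fitted by edgeR 4.0.16 under R 4.3.3, without a block. Standard errors were derived from the F statistic. Alternatives were RLE factors, library size only, 2 other filters, DESeq2 1.42.0, a replicate block, each library left out, limma 3.58.1 on log2(TPM + 1) and log2(TPM + 0.1), and, chosen after seeing the data, both libraries numbered 3 left out. The fits were tested on simulated data. The members and lists were chosen with earlier results of these data known. Named were all members and, of the wider pathway and regulated lists, every gene past the threshold, per role up to 2 others with the highest mean CPM that did not pass, and untested genes over 3 counts in a library. MSX1 was added after its values were seen. Markers of cell states are given as counts and summed ranges. IFT172, DYNC2H1, PAX7, UTF1, L1TD1 and SOX1 had no row in the count table used and were not analysed here, and 1 further gene of the lists is not reported here.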

Additional observations from a re-analysis of the deposited data

How the results depend on the processing

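Over 16 alternatives, HHIP, GLI1, PTCH1, GLI3 and BOC kept their direction and their side of the threshold wherever they were tested. SMO missed it in 1, GLI2 in 7 and GAS1 in 9 of 16. Members called lower numbered 3 rather than 5 with limma on log2(TPM + 1), on log2(TPM + 0.1) and when limma was run on genes averaging 1 TPM or more. These limma fits do not correct for the depth that the TPM values still carry. Every MT-F7 library held more counts than any MC-F7 library. Over all genes, limma on log2(TPM + 1) called 1547 higher and 820 lower, against 1553 and 1463 in the main fit. Members called lower numbered 3 to 5 when each library was left out, and the higher ones 2 to 3. With a mean TPM of at least 1, 5 of 18 tested other pathway genes were called, against 10 of 36 in the main fit. Other pathway genes called numbered 6 to 11 with each library left out. All 5 regulated genes tested with a mean TPM of at least 1 were called, against 9 of 15 in the main fit. Regulated genes called numbered 9 to 10 with each library left out. Over all genes 1399 of 7418 tested were called with a mean TPM of at least 1, against 3016 of 13001 in the main fit. With each library left out, 1914 to 3093 were called, the fewest without MC-F7 replicate 2.

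The labels give both groups the replicate numbers 1 to 3. Same-numbered libraries had correlations of their deviations across genes of 0.134, 0.0445 and 0.417, and libraries 1 and 2 did not match their own number best, so the numbers were not taken as pairs. With the number added as a block, 4674 of 13001 genes and 16 of the 36 other pathway genes were called, against 3016 and 10 without it. The members were called as before, 3 higher and 5 lower.

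Without both libraries numbered 3, GPC4 and GPC6 turned to -0.015 and -0.52. MGRN1 turned to 0.067 with limma on log2(TPM + 1), with all genes or with a mean of at least 1, and to 0.073 on log2(TPM + 0.1). Those are the fits without a correction for the greater depth of the MT-F7 libraries. With each library left out, the log2 fold change ran from -0.11 to 0.25 for CDON, -0.55 to 0.034 for DHH, -0.066 to 0.16 for GPC4, -0.26 to 2.21 for GPC6, -0.19 to 0.036 for MGRN1, -0.028 to 0.22 for IFT88 and -0.0076 to 0.45 for EVC2. None of these was past the threshold, and the cause of the shifts with libraries left out was not tested. Depth limits SHH and the genes under 1 CPM, in which only large changes could be detected.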
